A study of Mus musculus with 8 samples.

Results

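The genes Acvrl1, Bmp4, Bmper and Fst are the 4 members described here, chosen by symbol among the 622 genes of the deposited table as genes of BMP and activin signalling. Bmp4 and Acvrl1 were lower in Runx1 knockout (ko) than in wt cells, and Bmper and Fst were higher. Every gene of the table had an FDR under 0.05 for ko against both wt lines in the authors' deposited statistics, so that the 4 members differed follows from their being in it. Fst showed by far the widest gap of the 4, its mean level being 0.305 ± 0.101 RPKM across the wt libraries and 23.6 ± 11.9 RPKM across the ko libraries (SD, n = 4 each). RPKM is a read number scaled to gene length and library depth, so it allows levels of different genes to be set side by side. The libraries were made from total RNA of mouse hemogenic endothelium, a transient endothelium from which blood cells emerge, differentiated in culture from embryonic stem cells of strain 129. FLK1+ cells of d3.25 embryoid bodies were kept for 2 days in blast medium with VEGF and IL6, and cells with the surface phenotype cKIT+ TIE2+ CD41- were sorted, in every group alike. The wt lines were iDam and BryGFP, and the ko lines were iDamko (iDam_runx1-/-) and Ainv18ko (Ainv18_runx1-/-), with 2 libraries for each of the 4 lines, given as biological duplicates. Each genotype is therefore represented by 2 lines. In any comparison of a ko line with a wt line, line and genotype cannot be told apart. This holds also for iDamko against iDam, which share a name stem. Within a line the libraries are called by the number 1 or 2 of their column.

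BMP ligands are secreted proteins that bring together type I and type II receptor kinases on the cell surface, and the receptors then phosphorylate SMAD proteins that act in the nucleus. Activins use related receptors and another set of SMADs. Extracellular binding proteins tune both branches. In the embryo BMP4 is needed for mesoderm and blood formation, and ALK1, the receptor that Acvrl1 encodes, is known for its role in endothelial cells and in the shaping of vessels.

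Values implied about 42300000 to 58900000 reads per library, from the steps that whole reads leave in low values of genes with 1 annotated transcript (68.4% to 100% of 10 to 30 values per library within 0.06 of a whole read). For BryGFP library 1, put at 44500000 reads, that depth fitted 78.9% of the values and a depth near 22200000 reads fitted 84.2%. The lower depth fitted no worse, so the range may not hold for this library. These estimates cover counting only. Because the table was selected in this way, a ko difference of a member is not independent evidence, and the tests of ko against wt below only set its size against the spread. Ko and wt libraries did not overlap in 99.4% of the 622 genes, nor in any of the 4 members. By limma on log2(RPKM + 1), run on the 360 genes whose mean reached 1 RPKM, 100% passed an adjusted p of 0.05 for ko against wt, 43.3% being higher and 56.7% lower in ko. After quantile normalization 54.8% of the genes called were higher, and after median centring 51.0%, while the 4 members kept their directions and calls under both. Both settings impose a common distribution or median on the libraries, which genes selected for ko differences need not share. All 4 members had that mean, Fst through its ko libraries alone. Runx1, the sort markers Kit and Tek and the CD41 gene Itga2b were not analysed here. In bulk RNA, fewer cells of a type and less RNA per cell cannot be told apart.

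Bmp4, the gene of the ligand BMP4 (ENSMUSG00000021835, chromosome 14), was lower in ko. Its level was 12.5 and 15.2 RPKM in the iDam libraries, 22.2 and 37.7 in BryGFP, 2.20 and 3.36 in iDamko, and 5.49 and 3.28 in Ainv18ko. The lowest wt library stood 2.27-fold above the highest ko library, so the genotypes did not overlap. These levels rest on about 154 to 364 reads per ko library and 958 to 2923 in the wt libraries other than BryGFP library 1. For ko against wt the log2 difference by limma was −2.25 ± 0.35 (SE; adjusted p = 0.000449), and with line means in place of libraries the adjusted p was 0.0158. The authors' deposited table gave Bmp4 as 3.80-fold lower in ko than in iDam (FDR 2.13e-07) and 8.13-fold lower than in BryGFP (FDR 8.2e-19), 2 comparisons that share the 4 ko libraries.

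Acvrl1, the gene of the type I receptor ALK1 (ENSMUSG00000000530, chromosome 15), was also lower in ko, with a large gap between the wt lines. The iDam libraries were at 39.0 and 41.0 RPKM and the BryGFP libraries at 12.5 and 13.7. In iDamko it was at 7.35 and 7.83 RPKM, and in Ainv18ko at 8.54 and 5.41. The highest ko library lay close below the BryGFP libraries, the closest wt library being 1.46-fold above it, while iDam stood far above all others. Against the mean of iDam, the ko line means were 5.27-fold lower in iDamko and 5.73-fold lower in Ainv18ko. Against the mean of BryGFP they were 1.72-fold and 1.87-fold lower. In the authors' deposited table the fold was 5.25 against iDam (FDR 2.96e-21), rank 146 of the 387 genes lower in ko, and 1.78 against BryGFP (FDR 0.0148), rank 373 of 387. The limma difference of ko against wt was −1.55 ± 0.40 (SE; adjusted p = 0.00421), and with line means in place of libraries it missed the threshold (adjusted p = 0.0677).

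Bmper, whose product binds BMPs outside the cell and modulates their signalling (ENSMUSG00000031963, chromosome 9), was higher in ko. It was at 3.09 and 3.94 RPKM in iDam, 2.58 and 2.01 in BryGFP, 5.79 and 10.6 in iDamko, and 6.52 and 10.1 in Ainv18ko. The genotypes did not overlap, with the lowest ko library 1.47-fold above the highest wt library. Within each ko line the library numbered 2 was the higher one, 1.83-fold in iDamko and 1.56-fold in Ainv18ko. Such shared differences were not particular to Bmper. Across the 360 genes, number 1 minus number 2 correlated at 0.69 between the ko lines. For ko against wt the log2 difference by limma was 1.23 ± 0.23 (SE; adjusted p = 0.000932), and with line means in place of libraries the adjusted p was 0.0130. According to the authors' deposited table, Bmper was 2.49-fold higher in ko against iDam (FDR 0.000357) and 3.64-fold higher against BryGFP (FDR 5.47e-08).

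Promoter windows are shown for Bmp4 and Bmper, the members for which a window was at hand. These genes, of a ligand and a protein that binds it, went in opposite directions. Each window is from RefSeq (GRCm38.p6) and runs from 250 bases before to 50 bases after the annotated start, on the gene's strand, 5′ to 3′, with CG dinucleotides in capitals. The Bmp4 window is chr14:46390620-46390919 on the minus strand and the Bmper window is chr9:23222826-23223125 on the plus strand.
Bmp4: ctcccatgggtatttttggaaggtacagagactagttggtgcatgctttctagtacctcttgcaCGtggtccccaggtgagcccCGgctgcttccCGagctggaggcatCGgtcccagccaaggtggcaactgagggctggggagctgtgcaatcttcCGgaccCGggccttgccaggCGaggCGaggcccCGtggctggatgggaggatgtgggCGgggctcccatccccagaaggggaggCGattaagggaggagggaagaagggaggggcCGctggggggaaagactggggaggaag
Bmper: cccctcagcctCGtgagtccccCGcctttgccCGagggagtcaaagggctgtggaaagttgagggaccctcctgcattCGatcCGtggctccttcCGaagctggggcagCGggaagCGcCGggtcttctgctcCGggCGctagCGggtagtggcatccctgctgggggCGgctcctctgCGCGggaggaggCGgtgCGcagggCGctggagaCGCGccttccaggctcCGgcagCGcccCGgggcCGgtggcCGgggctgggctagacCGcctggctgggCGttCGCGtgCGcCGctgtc
The Bmper window had 31 CG dinucleotides and 72.7% G and C, and the Bmp4 window 12 and 64.0%, where the median of all 32851 windows of 300 bases was 7 CG dinucleotides. Neither window held the RUNX motif TGTGGT or its reverse complement ACCACA, which 16.8% of all windows held. Neither held GGCGCC, a motif of BMP-responsive elements that reads the same on both strands and that 11.9% of all windows held. Absence says only that these letters are not in these windows. Promoters of Acvrl1 and Fst were not analysed here.

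Fst, the gene of follistatin, which binds and blocks activins (ENSMUSG00000021765, chromosome 13), had the widest difference of the members. It was at 0.212 and 0.238 RPKM in iDam and 0.434 and 0.335 in BryGFP. In iDamko it was at 14.9 and 29.0 RPKM and in Ainv18ko at 12.8 and 37.7. The lowest ko library stood 29.5-fold above the highest wt library. Wt levels rest on about 19 to 33 reads in the libraries other than BryGFP library 1, whose depth is uncertain, and ko levels on about 1090 to 3280, so the fold is limited by the wt counts. The library numbered 2 was again the higher one in both ko lines, 1.95-fold in iDamko and 2.95-fold in Ainv18ko, a spread that is small beside the gap between genotypes. In the authors' deposited table, Fst was 108-fold higher in ko against iDam, rank 5 of the 235 genes higher in ko, and 62.2-fold higher against BryGFP, rank 7 of 235. On the log2(RPKM + 1) scale, which shrinks the change of a gene this low in wt, the limma difference of ko against wt was 4.11 ± 0.32 (SE; adjusted p = 4.19e-05). With line means in place of libraries the adjusted p by limma was 0.00367. Fst was in the table for its ko difference and in the test through its ko libraries alone. These p-values are therefore no independent evidence of a difference.

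**Figure D1:**
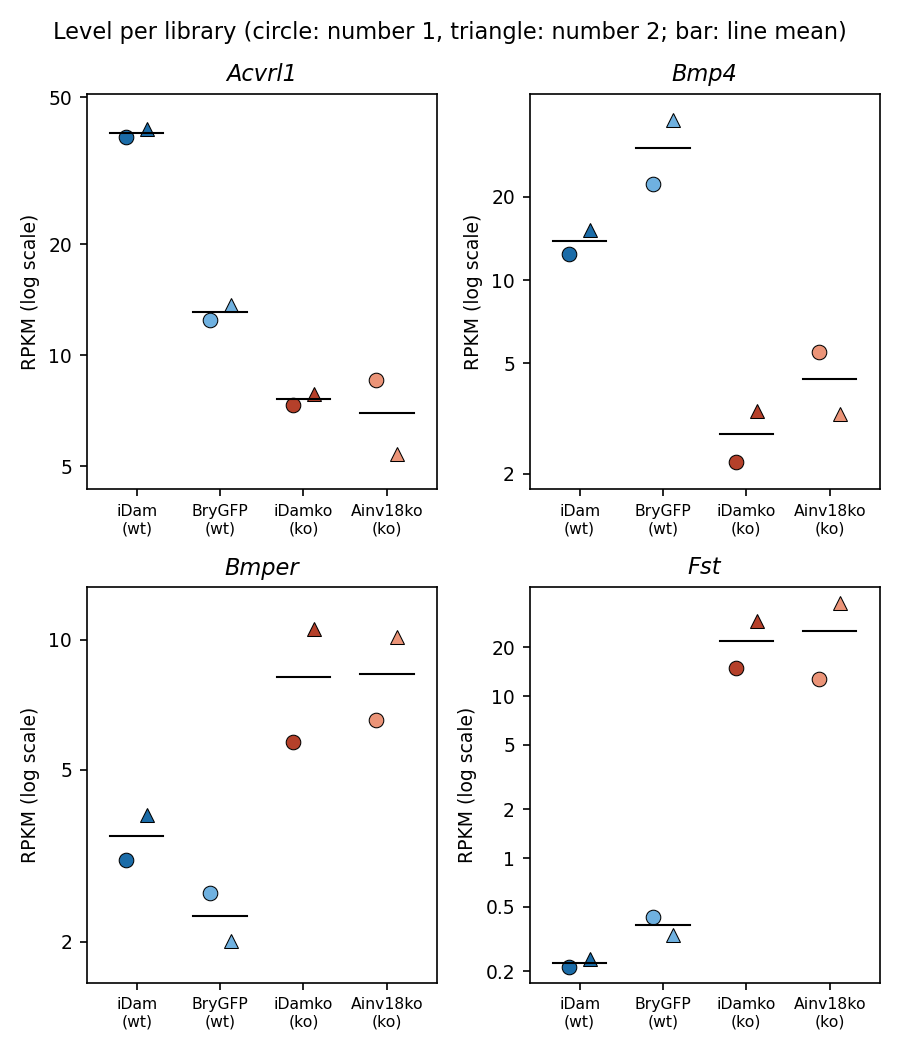
RPKM of Acvrl1, Bmp4, Bmper and Fst in each of the 8 libraries, on a log axis that differs between panels; circles are libraries numbered 1, triangles libraries numbered 2, and bars line means (n = 2). The Acvrl1 levels of BryGFP, at 12.5 and 13.7 RPKM, lie nearer to ko than to iDam, and the Fst levels of all wt libraries reach at most 0.434 RPKM, against 12.8 or more in ko.

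Fst thus went from the lowest of the 4 levels in every wt library to the highest in every ko library. In both iDam libraries it ran from Acvrl1 through Bmp4 and Bmper to Fst, and in both BryGFP libraries from Bmp4 through Acvrl1 and Bmper to Fst. In all 4 ko libraries Bmp4 was the lowest. Acvrl1 lay above Bmp4 in iDam as in ko, and below it in BryGFP alone. Acvrl1 and Bmper, between them, changed places between the libraries of each ko line and did not differ beyond their spread. Among the 622 genes, Fst went from rank 515 by mean level in wt to rank 60 in ko, and Bmp4 from rank 65 to rank 182.

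Ratios of members were also taken within each library. Bmper stood at 0.0532 to 0.259 of the Bmp4 level in the wt libraries and at 1.19 to 3.16 of it in the ko libraries. The lowest ko value, 1.19, was that of Ainv18ko library 1, where Bmp4 was at its ko maximum and Bmper among its lower ko values. Fst stood at 0.00888 to 0.0195 of Bmp4 in wt and at 2.33 to 11.5 in ko. The ratio of Fst to Acvrl1 was 0.00545 to 0.0348 in wt and 1.5 to 6.97 in ko. These 3 ratios, each of a gene higher in ko over a gene lower in ko, lay under 1 in every wt library and over 1 in every ko library, a direction that the choice of genes fixes. The ratio of Acvrl1 to Bmp4 did not separate the genotypes, at 3.13 and 2.70 in iDam, 0.561 and 0.362 in BryGFP and 1.56 to 3.34 in ko.

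**Figure D2:**
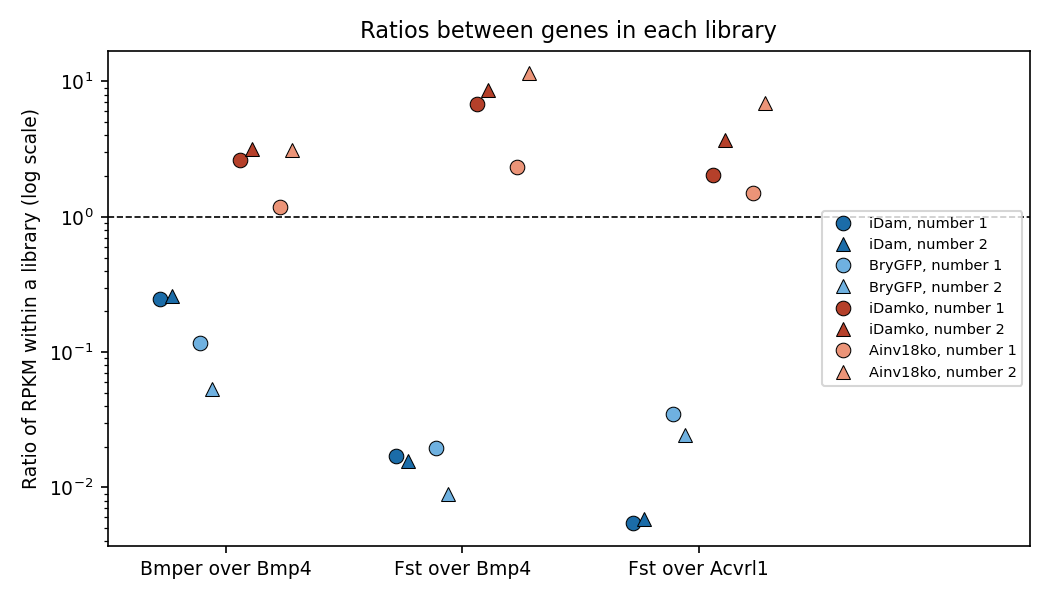
Ratio of the RPKM of 2 genes within each library, on a log axis with a dashed line at 1. Each of the 4 wt libraries (blue) lies below the line and each of the 4 ko libraries (red) above it for all 3 ratios, with Bmper over Bmp4 in Ainv18ko library 1 closest to the line at 1.19.

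The wt lines were then compared with each other, and the ko lines likewise. The table was not selected on these contrasts directly, but its selection for ko against each wt line used the same libraries, so the shares called among its genes are not free of it. Between wt lines, 25.3% of the 360 genes passed an adjusted p of 0.05 by limma, 6.11% being higher in iDam and 19.2% higher in BryGFP. Of the genes called, 24.2% were higher in iDam, against 35.6% after quantile normalization and 51.5% after median centring. Acvrl1 was higher in iDam, 3.06-fold by line means, with a log2 difference of 1.54 ± 0.22 (SE; adjusted p = 0.00174) that ranked 13 of 360 by size. It kept this call without any 1 library (highest adjusted p = 0.0200). Bmp4 went the other way and was 2.17-fold higher in BryGFP, at a log2 difference of −1.02 ± 0.31 for iDam minus BryGFP (SE; adjusted p = 0.0375). The Bmp4 call was lost without iDam library 1 (−0.89; adjusted p = 0.184), iDam library 2 (−1.16; adjusted p = 0.0775) or BryGFP library 2 (−0.65; adjusted p = 0.316). Bmper, at 0.45 ± 0.30 for iDam minus BryGFP, and Fst, at −0.18 ± 0.45 (SE), did not pass (adjusted p = 0.361 and 0.864 by limma). Fst is so low in wt that this test has little to work with.

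Between the ko lines, 3.61% of the 360 genes passed, 0.278% being higher and 3.33% lower in iDamko, and none of the 4 members did (adjusted p = 1 for each by limma). Their log2 differences of iDamko minus Ainv18ko were 0.13 ± 0.22 for Acvrl1, −0.50 ± 0.31 for Bmp4, −0.05 ± 0.30 for Bmper and −0.08 ± 0.45 for Fst (SE). The means of the ko lines were 8.19 and 8.33 RPKM for Bmper and 21.9 and 25.2 for Fst.

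Each ko line was also set against a wt line, iDamko against iDam, which share a name stem, and Ainv18ko against BryGFP. The former called 99.2% of the 360 genes (42.8% with a higher level in ko and 56.4% with a lower one), and the latter 98.3% (42.2% and 56.1%). Of the genes called for iDamko, 43.1% were higher, against 53.4% after quantile normalization. For Ainv18ko the share was 42.9%, against 55.6% after quantile normalization and 58.6% after median centring. The log2 difference of Acvrl1 by limma was −2.25 ± 0.22 in iDamko (SE; adjusted p = 3.83e-05) and −0.85 ± 0.22 in Ainv18ko (adjusted p = 0.00700). That of Bmp4 was −1.98 ± 0.31 (adjusted p = 0.000408) and −2.51 ± 0.31 (adjusted p = 0.000108). Bmper rose by 0.98 ± 0.30 in iDamko (adjusted p = 0.0110), a call that ended without iDam library 1 (adjusted p = 0.0609) or iDamko library 2 (0.0959), and by 1.48 ± 0.30 in Ainv18ko (adjusted p = 0.00192). Fst, in the test through its ko libraries alone, rose by 4.15 ± 0.45 (adjusted p = 5.90e-05) and by 4.06 ± 0.45 (adjusted p = 4.78e-05). When all libraries were set to an equal median, the fall of Acvrl1 in Ainv18ko missed the threshold (−0.31; adjusted p = 0.25 by limma). In this selected table more genes were lower than higher in ko. That setting moved the median difference of Ainv18ko against BryGFP from −0.70 to −0.17. The lost call therefore cannot be told apart from the effect of the setting itself.

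The difference between these ko effects was tested directly, and 9.72% of the 360 genes passed, 6.11% with a positive and 3.61% with a negative difference. Of the genes called 62.9% were positive, against 52.9% after quantile normalization and 44.7% after median centring. Acvrl1 was the 1 member that passed, its log2 difference in iDamko against iDam less that in Ainv18ko against BryGFP being −1.41 ± 0.32 (SE; adjusted p = 0.0260 by limma), rank 21 of 360 by size. The ko lines differed by 0.13 on this scale and the wt lines by 1.54, so the contrast lies almost wholly in the wt lines. With 1 library left out the call ended in 7 of 8 fits, at adjusted p from 0.0543 to 0.0909, and held at 0.0127 in the fit without Ainv18ko library 2, while the difference stayed between −1.70 and −1.12. The other members did not pass, at 0.53 ± 0.44 for Bmp4, −0.50 ± 0.42 for Bmper and 0.09 ± 0.63 for Fst (SE; adjusted p = 0.623, 0.636 and 0.969).

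**Figure D3:**
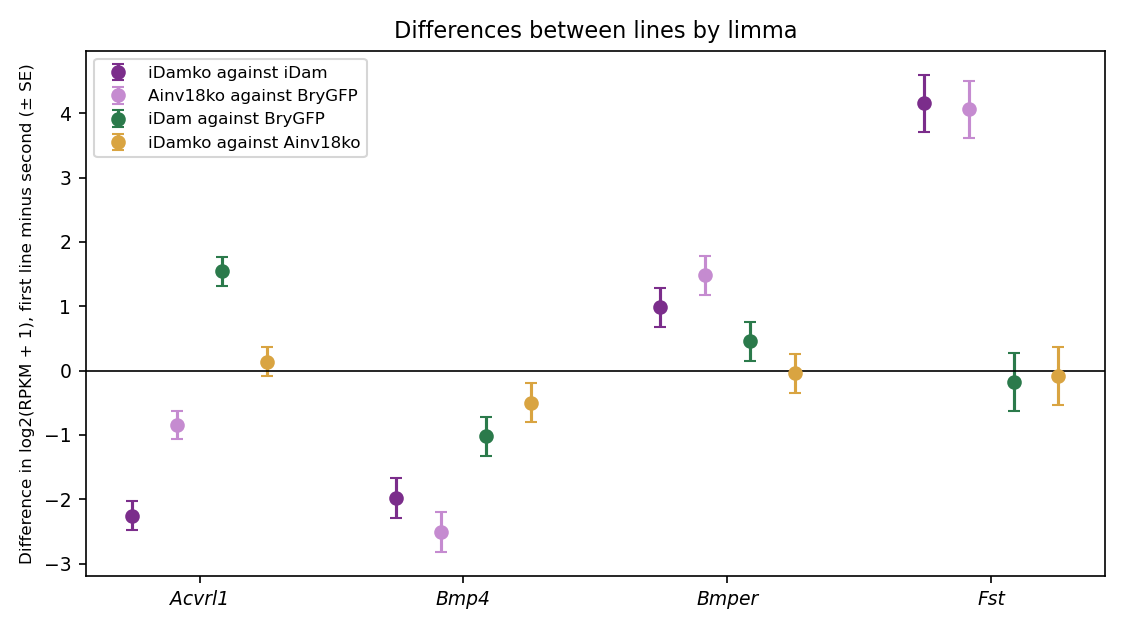
Difference in log2(RPKM + 1) between lines by limma, first line named minus the second, with bars of 1 standard error, for the 4 members. Acvrl1 differs between the wt lines by 1.54 ± 0.22 while its ko lines lie at 0.13 ± 0.22, and Fst lies above 4 in both comparisons of ko with wt.

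Some marker genes of endothelium and of other cell types moved between the same lines. Of 18 endothelial markers 2 were in the table, the tight junction gene Cldn5 and the lectin gene Clec14a. Their summed level was 39.7 and 28.2 RPKM in iDam, 9.90 and 14.0 in BryGFP, and 4.87 to 6.24 in ko, the same order of lines as for Acvrl1. Of 15 smooth muscle and mesenchyme markers 3 were in the table (Acta2, Pdgfrb and Cspg4), with a summed level of 138 and 123 RPKM in iDam, 457 and 648 in BryGFP and 18.7 to 74.3 in ko, the order of lines seen for Bmp4 within wt. Lists whose sums were higher in ko, as Bmper and Fst were, included neural markers (2 of 9 in the table; 3.27 to 23.5 RPKM in wt and 54.4 to 131 in ko), erythroid markers (4 of 15; 50.7 to 71.4 and 139 to 170), cardiac markers (6 of 18, of which 4 were higher and 2 lower in ko; 25.3 to 54.0 and 80.6 to 101) and the endoderm gene Foxa2 (1 of 14; 0.0948 to 0.402 and 1.23 to 2.94). The arterial list held Bmx (1 of 9; 0.0138 to 0.184 RPKM in wt and 0.312 to 0.640 in ko) and the myeloid list Lyz2 (1 of 8; 0.588 to 0.719 and 0 to 0.0171). No marker in the table was listed at 0 in all libraries. The part of other cell types in the members' differences was not tested.

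For each member, the 3 genes with the most similar profile over the 8 libraries were found among the 360, by the root-mean-square distance between log2(RPKM + 1) profiles centred on each gene's mean. For Acvrl1 these were Kctd12b, at a distance of 0.202, the immune GTPase gene Gimap4 (0.220) and Cldn5 (0.230), where the median gene stood at 1.21. Cldn5 was, like Acvrl1, higher in iDam than in BryGFP, with line means of 19.1 RPKM in iDam, 7.14 in BryGFP, 3.44 in iDamko and 2.71 in Ainv18ko. For Bmp4 they were the integrin subunit gene Itga3 (0.267), the noncoding Mirg (0.269) and Mir382 (0.306), against a median of 0.975. In ko, Mir382 was at 0 RPKM and Mirg at 0 to 0.172, while Bmp4 kept 2.20 to 5.49. The likeness of Mirg and Mir382 to Bmp4 thus depends on the 1 RPKM added before the log. Itga3 was, like Bmp4, highest in BryGFP, at line means of 24.9 RPKM there, 16.9 in iDam, 3.36 in iDamko and 4.41 in Ainv18ko.

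Bmper had the closest matches, Ptgfr at 0.109, a prostaglandin receptor gene, Rhpn2 at 0.111 and the protease gene Lgmn at 0.153, against a median of 1.10. All 3 shared the higher value of the ko libraries numbered 2, as in Ptgfr, with 4.71 and 8.87 RPKM in iDamko and 5.88 and 9.66 in Ainv18ko. For Fst, the nearest genes were the neurofilament gene Nefl at 0.607, the glutamine synthetase gene Glul at 0.749 and its pseudogene Glns-ps1 at 0.756, which may share reads with Glul, against a median of 2.52. These distances grow with the size of a change: as a share of the median distance, the nearest gene stood at 0.241 for Fst, 0.274 for Bmp4, 0.167 for Acvrl1 and 0.0983 for Bmper. Nefl, also 1 of the neural markers, was likewise higher in the ko library numbered 2, at 22.7 and 46.0 RPKM in iDamko and 28.8 and 39.0 in Ainv18ko.

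**Figure D4:**
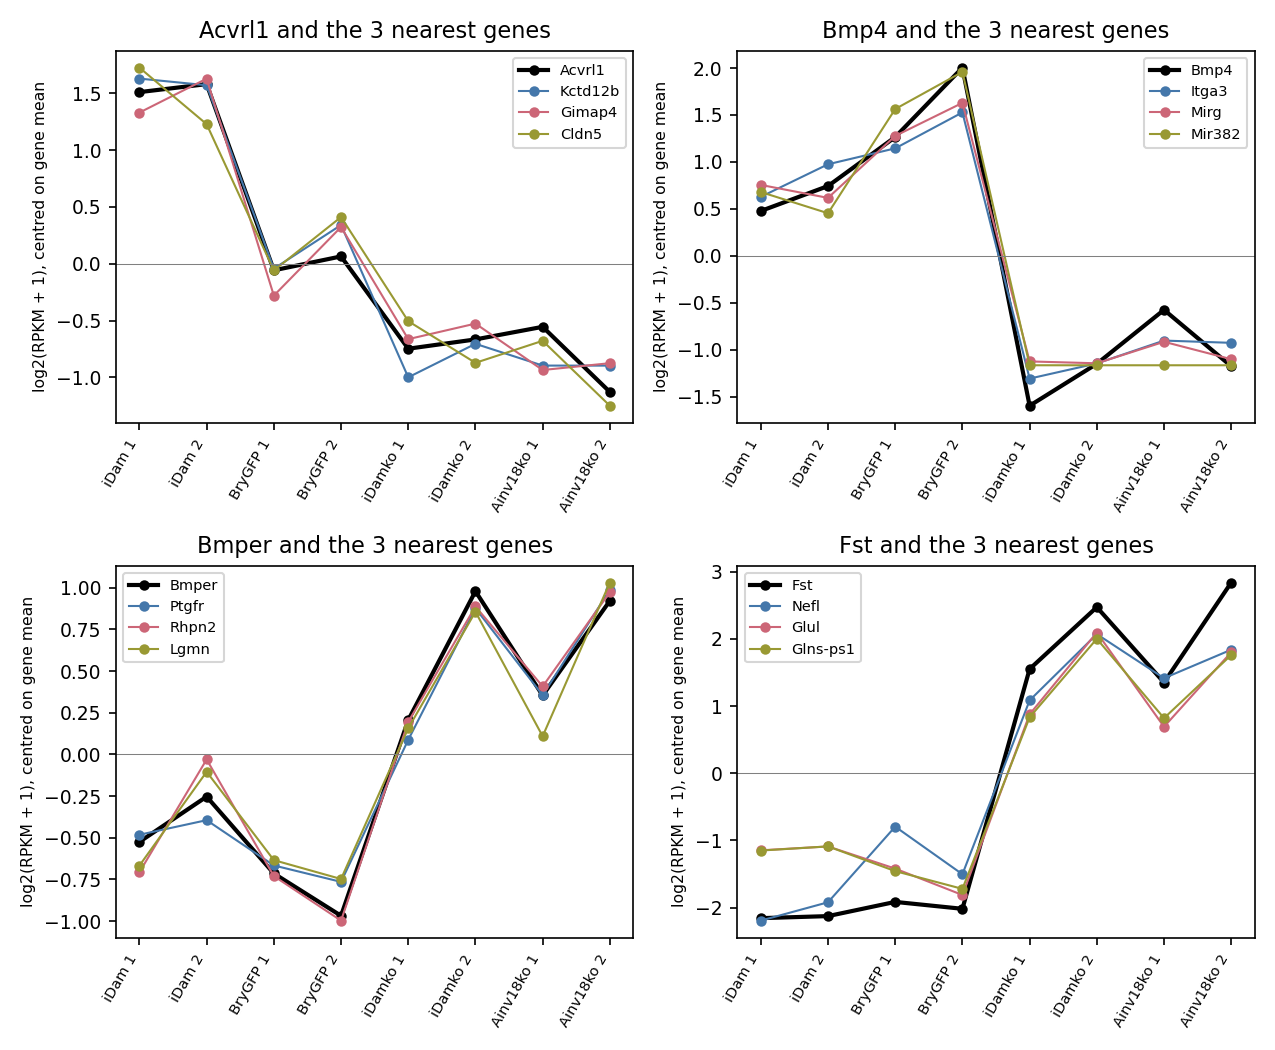
Profiles of log2(RPKM + 1), each centred on the gene's own mean, for each member (black) and its 3 nearest genes over the 8 libraries; lines join libraries only to guide the eye. The Bmper panel shows the smallest distances, 0.109 to 0.153, and the Fst panel the largest, 0.607 to 0.756, beside its larger change.

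Of 110 genes in 6 lists covering BMP and GDF ligands, TGF-beta and activin ligands, receptors, extracellular modulators, SMADs and their regulators, and targets, 9 were in the table, the 4 members and 5 others. Genes of the lists outside the table were not analysed here. No TGF-beta or activin ligand and no SMAD was among the 9. Of the 5 others, Bambi, Bmp5, Tll1 and Tgfbi were lower in ko and Msx1 higher. With the members this made 6 lower and 3 higher in ko, where 61.6% of all 622 genes had every ko library below every wt library and 37.8% had every one above. Of the 9, 7 had the mean of 1 RPKM needed for the test, Bmp5 and Tll1 being too low. Of these 7, 4 were lower and 3 higher in ko. Their median log2 difference of ko minus wt, −1.33, is the value of Bambi and stands for no common direction, and the median over all 360 was −0.83. After quantile normalization Bambi stood at −0.96 and the median over all 360 at −0.18.

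Among the ligands and receptors, Bmp5, a BMP ligand gene, was weak throughout, at 0.500 and 0.255 RPKM in iDam, 1.16 and 1.5 in BryGFP, 0.0557 and 0.0669 in iDamko, and 0.148 and 0.115 in Ainv18ko. By line means, Bmp5 and Bmp4 shared the order of the 4 lines, from BryGFP down through iDam and Ainv18ko to iDamko. The Bmp4 libraries of the ko lines overlapped and those lines did not differ by limma, and Bmp5 was too low to be tested. Bambi, a pseudoreceptor that lacks a kinase domain and dampens signalling of BMPs and activins, was at 11.3 and 12.7 RPKM in iDam, 9.20 and 10.4 in BryGFP, 3.37 and 3.84 in iDamko, and 3.45 and 4.22 in Ainv18ko. Bambi varied little within each genotype, and its fall of −1.33 ± 0.14 for ko against wt (SE; adjusted p = 9.04e-05 by limma) came with no call between wt lines (0.27 ± 0.20; adjusted p = 0.417).

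Tll1, a protease related to BMP1 that cleaves the BMP antagonist chordin, was at 1.82 and 1.66 RPKM in iDam and 0.767 and 0.653 in BryGFP, against 0.207 to 0.294 in ko. Its wt lines were ordered as those of Acvrl1, with iDam above BryGFP. Tgfbi, a matrix gene induced by TGF-beta, was at 6.27 and 4.41 RPKM in iDam, 3.12 and 7.29 in BryGFP and 0.561 to 1.07 in ko (−1.78 ± 0.23, SE; adjusted p = 0.000212 by limma). Msx1, a homeobox gene that BMPs induce in many tissues, was at 3.36 to 5.27 RPKM in wt and 6.35 to 9.56 in ko (0.78 ± 0.17, SE; adjusted p = 0.00193 by limma). In the ko libraries, lower Bmp4 thus stood beside higher Msx1 and lower Tgfbi, the 2 listed targets in the table, and beside lower Bambi. A link between these changes was not tested. In Ainv18ko against BryGFP the rise of Msx1 (0.68 ± 0.25, SE; adjusted p = 0.0262) ended without BryGFP library 1 (0.0643), BryGFP library 2 (0.136) or Ainv18ko library 1 (0.186), and in iDamko against iDam (0.87 ± 0.25; adjusted p = 0.00942) without iDam library 2 (0.0764).

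**Figure D5:**
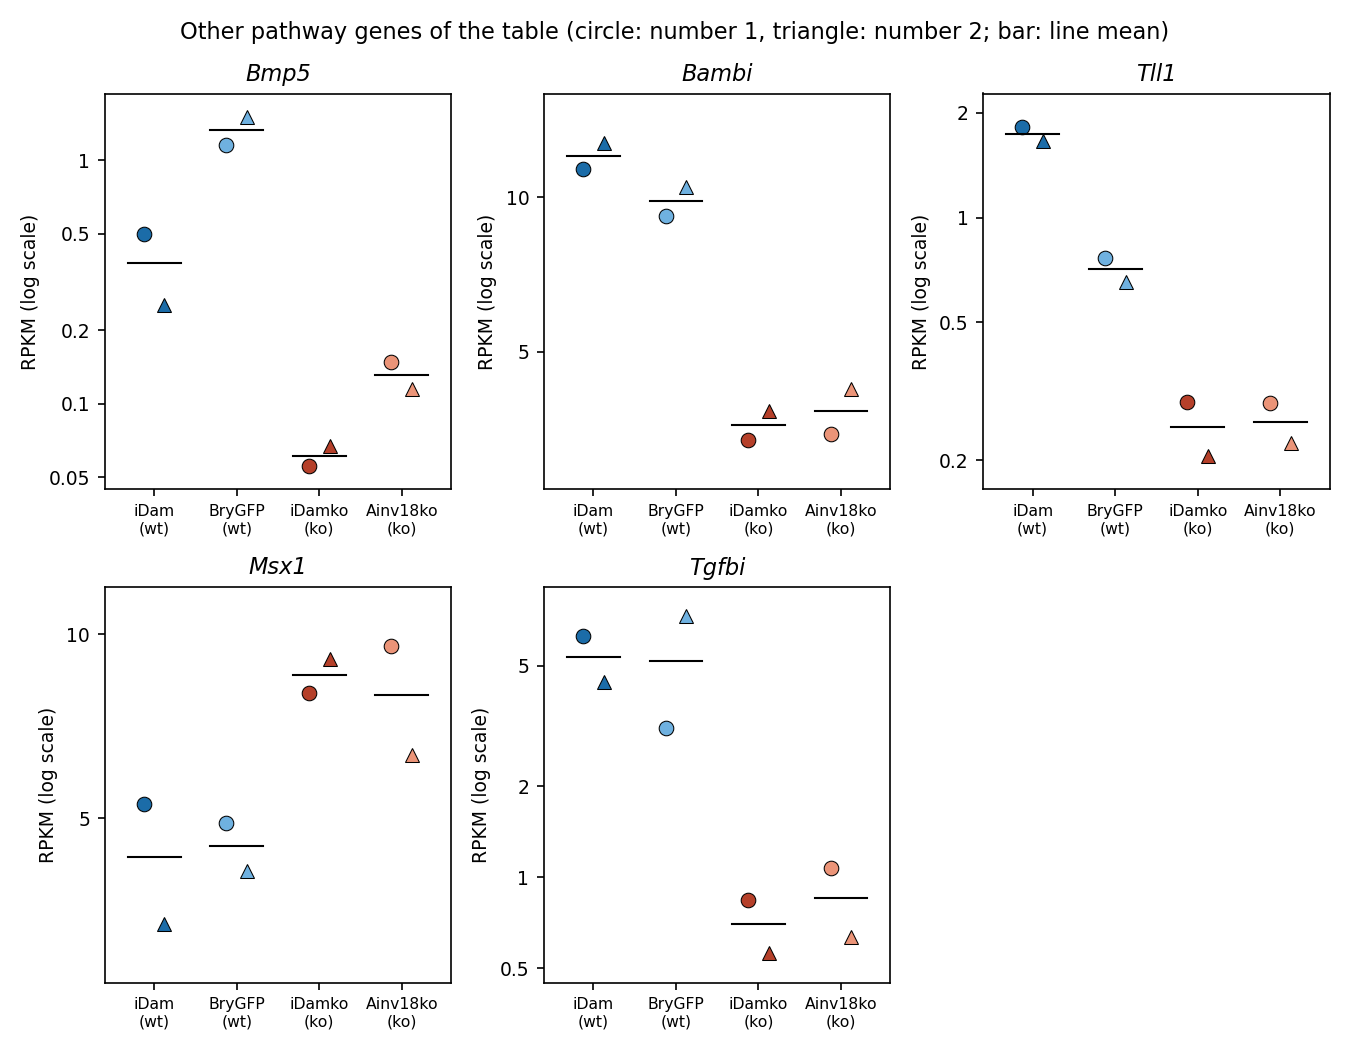
RPKM of the 5 other listed pathway genes of the table in each of the 8 libraries, on a log axis that differs between panels; circles are libraries numbered 1, triangles libraries numbered 2, and bars line means (n = 2). Msx1 is the only one of the 5 with all ko libraries, from 6.35 RPKM, above all wt libraries, up to 5.27.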

How the data were processed

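Total RNA of sorted cells was freed of ribosomal RNA before SOLiD library preparation, per the labels' protocols. The submitters' processing notes name edgeR and mm9. How reads were aligned and counted is not given in the sources used here. No unit is named for the authors' deposited library values, which were taken as RPKM, since the length implied by the authors' mean log2 CPM and these values followed annotated exon length (GENCODE M21; r = 0.911 across 352 genes, which are not independent). The authors' deposited log2 folds, p-values and FDRs were used as given, their sign being wt over ko in all 622 genes. Columns name lines, and 4 ko columns that stand in the table again with identical values were used once. Ainv18ko was assigned as the ko line without Dam in its name.

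Log2(RPKM + 1) was fitted with limma 3.58.1 in R 4.3.3 (trended prior variance) over the 360 genes whose mean reached 1 RPKM, with Benjamini-Hochberg adjustment and a threshold of 0.05. Ko against wt used genotype alone, so the 2 libraries of a line entered as separate replicates. Other comparisons used 1 mean per line with the spread shared over all 8 libraries. The fit was tested on simulated data with a genotype effect and independent noise per library. These held no differences between lines of a genotype, so the test does not cover them. Read numbers of members are RPKM times implied length and depth. Members and lists were chosen with earlier results of these data known. Named genes are the members, listed pathway genes of the table, 3 nearest profiles per member, and markers. RPKM values are not counts, so no count test was run.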

Additional observations from a re-analysis of the deposited data

Results flagged for a closer look

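Acvrl1 was set apart by the test of the difference between ko effects, in which its log2 difference for iDamko against iDam, less that for Ainv18ko against BryGFP, was −1.41 ± 0.32 (SE; adjusted p = 0.0260 by limma). No library of a member stood apart from the other 3 of its genotype by Dixon's criterion, over 4 members and 2 genotypes. Each group holds 2 libraries from each of 2 lines. A gap between lines, as for Acvrl1 in wt, can hide a single outlying library, so this result says little.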

How the results depend on the processing

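Of 340 values of the members under alternatives, 323 kept direction and side of the threshold, or had no call to lose, and 17 lost their call. No value reversed a called direction. The 323 include comparisons without a main call, and ko contrasts that the selection of the table favoured. Outside those contrasts, Acvrl1 in the difference of the ko effects kept its call under 7 alternatives and lost it under 7. Bmp4 between wt lines kept its call under 8 and lost it under 6. Acvrl1 between wt lines kept its call under all 14. Besides the losses given in the report, the difference of Bmp4 between wt lines missed the threshold with a pseudocount of 0.1 RPKM (adjusted p = 0.0578), without the filter on low values (0.0516) and under median centring (0.119), the last chosen after seeing the data. Without the filter, 622 genes passed for ko against wt, 591 for iDamko against iDam and 582 for Ainv18ko against BryGFP, since more genes were tested. With 1 library left out, assuming a lone library varies like the rest, 14 to 26 genes passed for the difference of the ko effects (35 with all) and 48 to 94 between wt lines (91 with all), where fewer samples entered. For the former the counts were 17 without iDam library 2, 18 without BryGFP library 2, 14 and 18 without iDamko library 1 or 2, and 17 and 15 without Ainv18ko library 1 or 2. Between wt lines they were 52 and 55 without iDam library 1 or 2 and 48 without BryGFP library 2. Quantile normalization moved the median difference of ko against wt by 0.65 and median centring by 0.45 on the log2 scale.

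The number in the column names was also used as a replicate block. Across 360 genes, differences between number 1 and number 2 correlated at 0.41 between iDam and iDamko and 0.52 between iDam and Ainv18ko. Between the ko lines the correlation was 0.69. Pairs with BryGFP stood at −0.20 (iDam), −0.03 (iDamko) and 0.01 (Ainv18ko). A difference tied to the number was thus shared by iDam and the ko lines but not by BryGFP, and the main fits did not pair samples by it. With the block 359 genes passed for ko against wt, 53 in place of 35 for the difference of the ko effects, and no call of a member changed. At about 19 to 33 reads in the wt libraries other than BryGFP library 1, counting limits what can be said of Fst within wt.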
